A study of Mus musculus with 9 samples.

Results

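Serum amyloid and acute phase proteins are plasma proteins that the liver makes in amounts that change during inflammation. The genes described here are Saa1, Saa2, Saa3 and Saa4, which encode the serum amyloid A family, Apcs and Crp, which encode pentraxins, Orm1 and Orm2, which encode orosomucoids, Hp, which encodes haptoglobin, and Lcn2, which encodes lipocalin 2. They were taken by name: every probe set of the array whose platform annotation gives exactly 1 gene symbol, and that symbol is a member. This found 12 probe sets for all 10 genes, among 34945 probe sets for 18193 genes in all. Saa1 and Saa4 had 2 probe sets each, and the one with the higher mean over all 9 arrays stands for the gene.

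The study compared 5 hepatocellular carcinomas of mice with 4 normal livers. The tumours are titled triple knockout (TKO), but their listed genotype is RbΔ/Δ; p130Δ/Δ; p107+/-, so an intact copy of p107 is listed. These mice had received Cre recombinase on an adenovirus (Ad-Cre), injected into the spleen 4 months before dissection, so the deletions were made in whichever cells of an adult animal the virus reached. The livers came from wild type, adult, tumour-free mice with no injection listed. Genotype, virus and tumour state therefore differ together between the groups, and strain, sex and exact age are not stated in the labels. The labels also do not say whether each sample is a different animal, and the p-values cover only the spread among the samples as they are. Total RNA was measured on Affymetrix Mouse Genome 430 2.0 arrays, 1 array a sample, and all values below are log2 expression values; the number of arrays limits the precision.

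The acute phase response is the change in plasma proteins that follows infection or injury. Cytokines of the IL-6 family signal to hepatocytes through gp130, JAK kinases and STAT3, and IL-1 and TNF signal through NF-kB; C/EBP factors join both at the promoters of the responding genes. Serum amyloid A circulates on high density lipoprotein, and the pentraxins bind microbial surfaces and dying cells. Orosomucoids carry lipophilic molecules, haptoglobin captures free haemoglobin, and lipocalin 2 holds iron-binding siderophores away from bacteria. In mice SAA1, SAA2 and the orosomucoids are strongly induced in liver, whereas CRP is only a minor acute phase protein and serum amyloid P, the product of Apcs, takes its place.

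The 300-base windows around the annotated starts of 8 members, 250 bases upstream and 50 downstream, were searched on both strands for motifs of the factors named above. The C/EBP motif TTGCNNAA was in 6 of these 8 windows (Saa1, Saa2, Saa3, Saa4, Orm2 and Lcn2), and 10.8% of all 32851 windows in the table hold it. The NF-kB motif GGNNNTTTCC was in the Saa1 window only, against 5.48% of all windows. The STAT motif TTCNNNGAA was in the Apcs window only, against 8.3% of all windows. The TATA motif TATAAA was in the Crp and Orm2 windows, against 13.6% of all windows. A match is a run of letters and not a measured binding site, and Orm1 and Hp had no window to search. The 250 bases upstream of 5 starts are printed 5′ to 3′ on each gene's strand, with motif letters in capitals, because these genes carry the contrasts below: Saa1 and Saa2 were lower in the tumours, Saa3 of the same cluster was not, Orm2 has the C/EBP motif that reads the same on both strands, and Lcn2 was the member that was higher. The sequences are RefSeq's, of build GRCm38.p6. The Saa1 stretch is chr7:46742981-46743230 on the minus strand, Saa2 is chr7:46751583-46751832 on the plus strand, Saa3 is chr7:46715677-46715926 on the minus strand, Orm2 is chr4:63362199-63362448 on the plus strand, and Lcn2 is chr2:32387740-32387989 on the minus strand.
Saa1: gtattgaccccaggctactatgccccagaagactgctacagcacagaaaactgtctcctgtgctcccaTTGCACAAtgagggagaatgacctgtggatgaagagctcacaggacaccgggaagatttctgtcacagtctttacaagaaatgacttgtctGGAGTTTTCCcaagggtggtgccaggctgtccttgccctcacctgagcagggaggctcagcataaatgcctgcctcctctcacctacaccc
Saa2: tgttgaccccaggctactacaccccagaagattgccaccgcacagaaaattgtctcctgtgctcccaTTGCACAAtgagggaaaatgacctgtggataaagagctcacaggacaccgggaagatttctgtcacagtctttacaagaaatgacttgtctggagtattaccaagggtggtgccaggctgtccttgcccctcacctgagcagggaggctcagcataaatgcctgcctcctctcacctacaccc
Saa3: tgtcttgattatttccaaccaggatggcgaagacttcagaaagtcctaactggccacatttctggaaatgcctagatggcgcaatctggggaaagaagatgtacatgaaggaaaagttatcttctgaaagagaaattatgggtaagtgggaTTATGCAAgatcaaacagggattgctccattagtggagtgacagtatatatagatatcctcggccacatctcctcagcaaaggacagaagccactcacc
Orm2: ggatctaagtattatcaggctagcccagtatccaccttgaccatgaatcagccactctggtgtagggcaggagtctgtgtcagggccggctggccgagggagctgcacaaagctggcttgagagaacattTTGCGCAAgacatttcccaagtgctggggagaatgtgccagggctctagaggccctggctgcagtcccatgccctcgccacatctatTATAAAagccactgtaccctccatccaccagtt
Lcn2: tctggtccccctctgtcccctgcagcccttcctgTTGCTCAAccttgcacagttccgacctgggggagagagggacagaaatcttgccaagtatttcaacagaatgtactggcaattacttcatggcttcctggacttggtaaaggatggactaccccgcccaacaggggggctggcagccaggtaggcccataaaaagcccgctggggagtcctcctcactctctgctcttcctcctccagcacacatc

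Saa1 and Saa2 read nearly alike. Their windows were 95.3% identical over 301 aligned columns, with 12 mismatches and 2 gap columns, while every other pair of members had between 46.7% and 54.2% identical columns. The C/EBP match began 182 bases upstream of the Saa1 start and 183 bases upstream of the Saa2 start, and the NF-kB match of Saa1 covered bases 91 to 82 upstream. The C/EBP match lay 99 to 92 bases upstream of Saa3 on the minus strand, 120 to 113 bases upstream of Orm2 on both strands and 216 to 209 bases upstream of Lcn2 on the plus strand, where plus is the gene's own strand. Among protein-coding genes Saa3, Saa4, Saa1 and Saa2 follow each other on chromosome 7, Crp and Apcs are neighbours on chromosome 1, and Orm1 and Orm2 lie on either side of Orm3 on chromosome 4. Hp is on chromosome 8 and Lcn2 on chromosome 2.

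**Figure D1:**
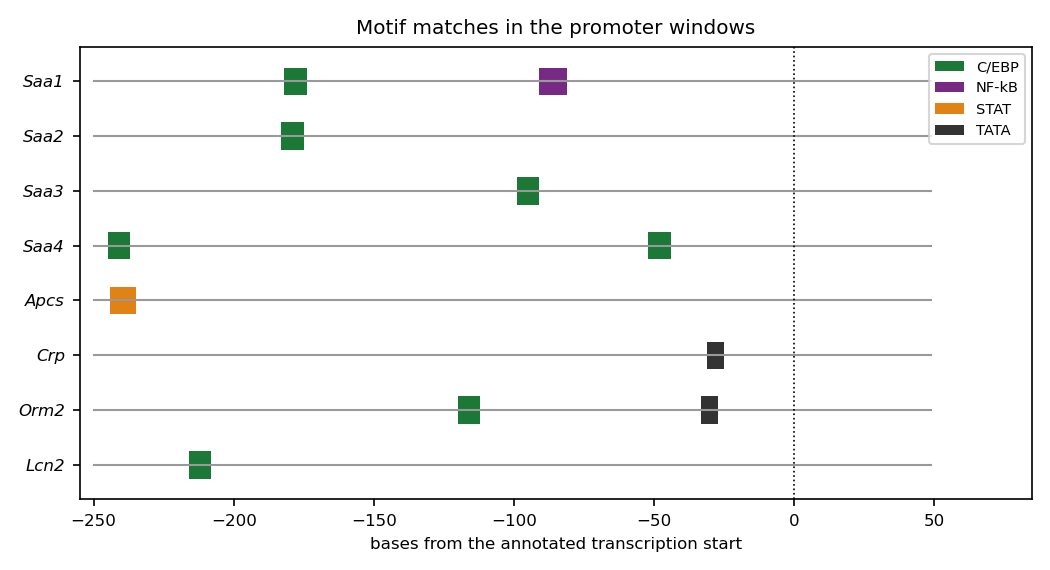
Positions of the motif matches in the promoter windows of 8 members; the horizontal axis gives bases from the annotated transcription start (dotted line), grey lines are the windows and coloured blocks are the matches. The C/EBP block of Saa1 at 182 and that of Saa2 at 183 bases upstream line up, and the NF-kB block is present for Saa1 only.

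The members moved apart in the tumours. Saa1, Saa2, Saa4 and Orm1 were lower, Lcn2 was higher, and Saa3, Apcs, Crp, Orm2 and Hp did not pass the test (limma, adjusted p under 0.05 over all 18193 genes). This is 4 of 10 members lower, where 17.4% of all genes were lower, and 1 of 10 higher, where 16.1% of all genes were higher. Together 5 of 10 passed, against 33.5% of all genes. These 5 calls and their directions were the same when arrays were centred on housekeeping genes or on their 75th percentile, although over all genes the median difference then became 0.112 and -0.229, and the share of higher genes among those called became 77.6% and 25.7%, where it was 48.0% without recentring. The median log2 difference, tumours minus livers, was -1.53 over the members and -0.081 over all genes, and 8 members had a negative difference. Tumours and livers did not overlap for 5 members (Saa1, Saa2, Saa4, Crp and Orm1), always with the tumours below. Over all genes the groups did not overlap for 29.8%, and for 15.9% with the tumours below.

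**Figure D2:**
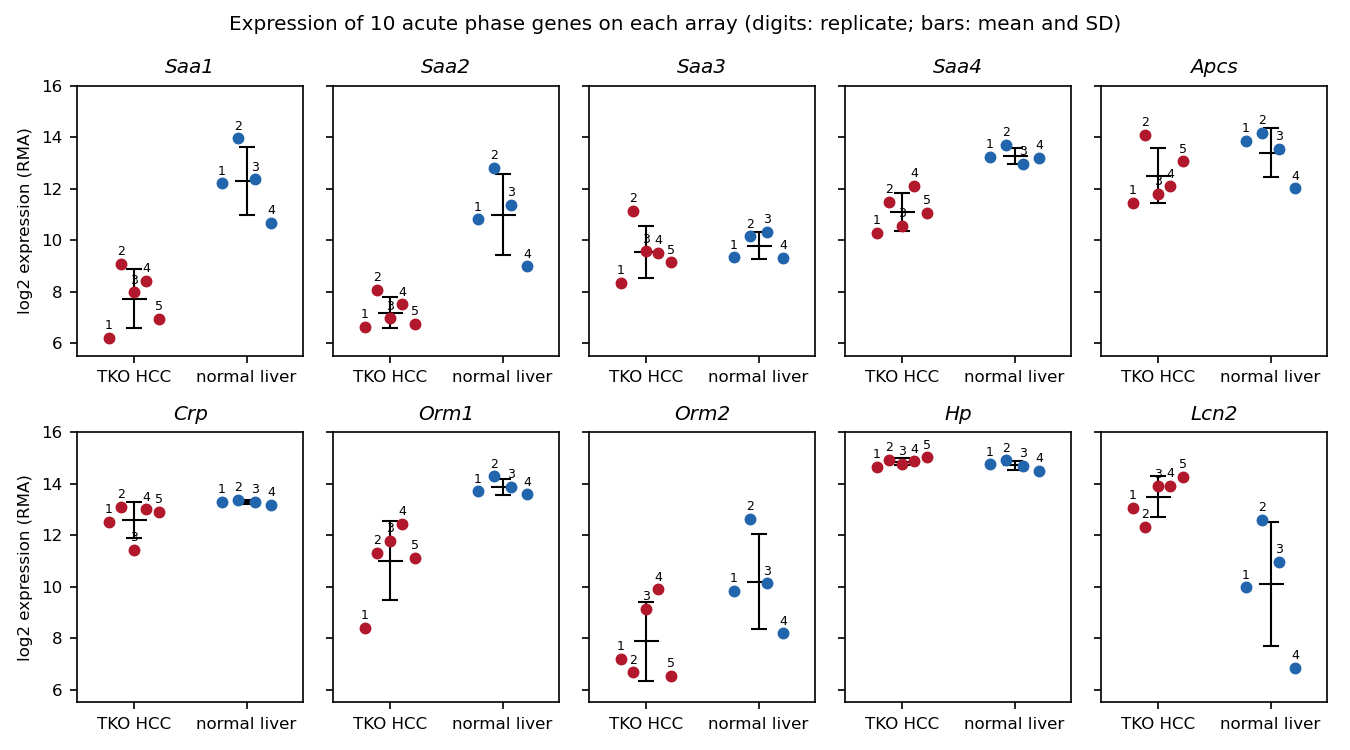
Log2 expression (vertical axis) of the 10 members on each array, with TKO tumours in red on the left and normal livers in blue on the right of each panel; points are arrays with their replicate number, bars are the mean and SD. All tumours lie below all livers for Saa1, Saa2, Saa4, Crp and Orm1, and 4 of 5 tumours lie above the highest liver for Lcn2.

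Saa1 showed the largest decrease of the 10. It stood at 6.21, 9.07, 7.98, 8.42 and 6.94 in tumours 1 to 5, against 12.21, 13.96, 12.37 and 10.69 in livers 1 to 4. No tumour came within 1 log2 unit of the lowest liver, which was liver 4. The means were 7.72 ± 1.15 in tumours (SD, n = 5) and 12.31 ± 1.34 in livers (SD, n = 4), a difference of -4.58 (SE 0.72, 95% interval -6.22 to -2.95, limma adjusted p = 0.00155), or 24.0-fold. Ordered by the size of the decrease, Saa1 was number 20 of all 18193 genes. Its other probe set gave 5.44, 8.96, 7.70, 8.16 and 6.60 in tumours, against 11.95, 13.85, 12.35 and 10.41 in livers, a difference of -4.77 (SE 0.81, limma adjusted p = 0.00234 over 34945 probe sets, of which 30.6% passed and 15.2% were lower). The platform names this second probe set Saa1, but its listed transcript belongs to Saa2 in RefSeq, and each of these genes carries the name of the other among its older names. Signals of Saa1 and Saa2 can therefore not be kept fully apart here.

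Saa2, the other strongly inducible member of the family, followed the same order of arrays. Its values were 6.64, 8.07, 6.97, 7.51 and 6.74 in tumours, against 10.81, 12.81, 11.37 and 8.98 in livers. Tumour 2 was the highest tumour and liver 4 the lowest liver for Saa2 as for Saa1, and the groups did not overlap. The mean was 7.19 ± 0.60 in tumours (SD, n = 5) and 10.99 ± 1.58 in livers (SD, n = 4), a difference of -3.81 (SE 0.66, 95% interval -5.30 to -2.31, limma adjusted p = 0.00259), or 14.0-fold. The probe set is of the kind (x_at) that can bind similar transcripts.

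Saa4 encodes the constitutive serum amyloid A, which is made without an inflammatory stimulus. It was measured at 10.29, 11.50, 10.57, 12.12 and 11.06 in tumours, against 13.24, 13.72, 12.97 and 13.20 in livers. Every tumour was below every liver. The livers lay closer together than for Saa1 and Saa2, although their SD was at percentile 86.2 of all genes. The difference was -2.17 (SE 0.35, 95% interval -2.96 to -1.38, limma adjusted p = 0.00173), or 4.51-fold, from means of 11.11 ± 0.73 in tumours (SD, n = 5) and 13.28 ± 0.31 in livers (SD, n = 4). Its other probe set, with 9.22 to 10.97 in tumours and 12.09 to 12.92 in livers, differed by -2.53 (SE 0.35, limma adjusted p = 0.000763).

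Saa3, the mouse family member that is also made by macrophages and other tissues outside the liver, did not pass the test. It read 8.36, 11.14, 9.56, 9.51 and 9.15 in tumours, against 9.34, 10.15, 10.33 and 9.31 in livers. The groups overlapped, tumour 2 was above all livers and tumours 1 and 5 were below them. The difference was -0.24 (SE 0.50, 95% interval -1.36 to 0.88, limma adjusted p = 0.731), and it turned to 0.060 without tumour 1.

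The family members did not shift by equal amounts. Within each array, Saa1 minus Saa3 was -1.82 ± 0.47 in tumours (SD, n = 5) and 2.52 ± 1.05 in livers (SD, n = 4), a difference of -4.34 with no overlap (two-sided exact permutation test, p = 0.00794, which is the lowest value that 5 and 4 arrays can give; adjusted over 8 family pairs, 0.0317). Saa2 minus Saa3 differed by -3.57 with the same adjusted p of 0.0317 in the exact test, and also without overlap. Saa1 minus Saa4 differed by -2.41 and Saa3 minus Saa4 by 1.94 (each with an adjusted p of 0.0317, exact permutation test), so Saa1 was lowered more than Saa4, and Saa4 more than Saa3. With a tumour or liver left out, the sizes stayed between -4.73 and -3.92 for Saa1 minus Saa3 and -4.08 and -3.09 for Saa2 minus Saa3. They stayed between -2.92 and -2.003 for Saa1 minus Saa4 and 1.63 and 2.22 for Saa3 minus Saa4. With 8 arrays the adjusted exact p often missed the threshold, and with a tumour left out it was always 0.0571 or above for these pairs. Fewer arrays raise the lowest p that the exact test can give, so a miss need not mean a weaker contrast. The pair Saa1 minus Saa2 differed by -0.78, with values of -0.43 to 1.01 in tumours and 1.01 to 1.71 in livers (exact permutation test, adjusted p = 0.0847). Saa2 minus Saa4 differed by -1.63 at the same adjusted p of 0.0847 in the exact test. These comparisons are of differences, not of levels between genes, since each probe set has its own brightness.

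Orm1 encodes an orosomucoid, also called alpha-1-acid glycoprotein. It stood at 8.40, 11.33, 11.77, 12.44 and 11.12 in tumours, against 13.71, 14.29, 13.88 and 13.59 in livers. Tumour 1 lay far below the other tumours, and all tumours were below all livers. The means were 11.01 ± 1.55 in tumours (SD, n = 5) and 13.87 ± 0.31 in livers (SD, n = 4), a difference of -2.86 (SE 0.70, 95% interval -4.43 to -1.29, limma adjusted p = 0.0128), or 7.25-fold.

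Orm2 spread widely in both groups. It had 7.20, 6.66, 9.15, 9.90 and 6.53 in tumours, against 9.84, 12.64, 10.13 and 8.18 in livers. Tumours 3 and 4 reached into the range of the livers, and tumours 1, 2 and 5 were below it. The difference was -2.31 (SE 0.98, 95% interval -4.52 to -0.10), and its limma adjusted p of 0.0971 did not pass. Orm1 minus Orm2 differed by -0.55 between the groups (exact permutation test, adjusted p = 0.698), so unequal shifts of the pair were not shown.

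Both pentraxin genes missed the threshold. Apcs, which encodes serum amyloid P, was measured at 11.46, 14.11, 11.80, 12.10 and 13.07 in tumours, against 13.86, 14.18, 13.56 and 12.01 in livers. Tumour 2 was as high as the livers, liver 4 was as low as the tumours, and the difference was -0.89 (SE 0.60, 95% interval -2.26 to 0.47, limma adjusted p = 0.273). Tumours 1 and 2 and liver 4 had little Xist, the RNA that coats the inactive X chromosome of females (6.34, 6.39 and 6.66, where the other 6 arrays had 12.68 to 13.55). The same arrays had 9.38, 9.16 and 10.30 of Eif2s3y, a gene of the Y chromosome, where the other 6 had 3.55 to 4.32. Without these 3 arrays Apcs differed by -1.54 (limma adjusted p = 0.019). With low Xist as a covariate on all 9 arrays it differed by -0.83 and did not pass (limma adjusted p = 0.326). Both alternatives were chosen after the data had been seen.

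Crp, the gene of C-reactive protein, lay just below the livers. Its values were 12.52, 13.11, 11.43, 13.01 and 12.90 in tumours, against 13.31, 13.38, 13.30 and 13.17 in livers. All tumours were below all livers, although 4 of them by less than 1 log2 unit, and tumour 3 was the lowest. The SD was 0.69 in tumours (n = 5) and 0.086 in livers (n = 4). The difference was -0.69 (SE 0.31, 95% interval -1.40 to 0.011, limma adjusted p = 0.114), and the exact permutation test of this gene alone gave an unadjusted two-sided p of 0.0397. Apcs minus Crp differed by -0.20 (exact permutation test, adjusted p = 0.778).

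Hp was the steadiest member over all 9 arrays, although Crp varied less among the livers (SD 0.086, against 0.171 for Hp, n = 4). Hp stood at 14.68, 14.92, 14.78, 14.88 and 15.04 in tumours, against 14.76, 14.92, 14.70 and 14.50 in livers. The groups overlapped and spanned 0.36 log2 units in tumours and 0.41 in livers. The difference was 0.14 (SE 0.11, 95% interval -0.10 to 0.38, limma adjusted p = 0.333). These values are close to 15.55, the highest value on any array, where differences can be compressed.

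Lcn2 was the member that was higher in the tumours. It had 13.06, 12.33, 13.90, 13.92 and 14.27 in tumours, against 9.98, 12.60, 10.98 and 6.85 in livers. Of the 5 tumours 4 were above all livers, tumour 2 was below liver 2, and the livers spanned 5.76 log2 units. The means were 13.50 ± 0.79 in tumours (SD, n = 5) and 10.10 ± 2.42 in livers (SD, n = 4), a difference of 3.40 (SE 0.99, 95% interval 1.15 to 5.64, limma adjusted p = 0.0277), or 10.5-fold. The SD among livers was at percentile 99.9 of all genes. The call was lost without tumour 3 (3.30, adjusted p = 0.0547), tumour 4 (3.29, 0.051), tumour 5 (3.20, 0.0618) or liver 1 (3.36, 0.0673), while the difference was 4.23 without liver 2 and 2.31 without liver 4 (limma in each).

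**Figure D3:**
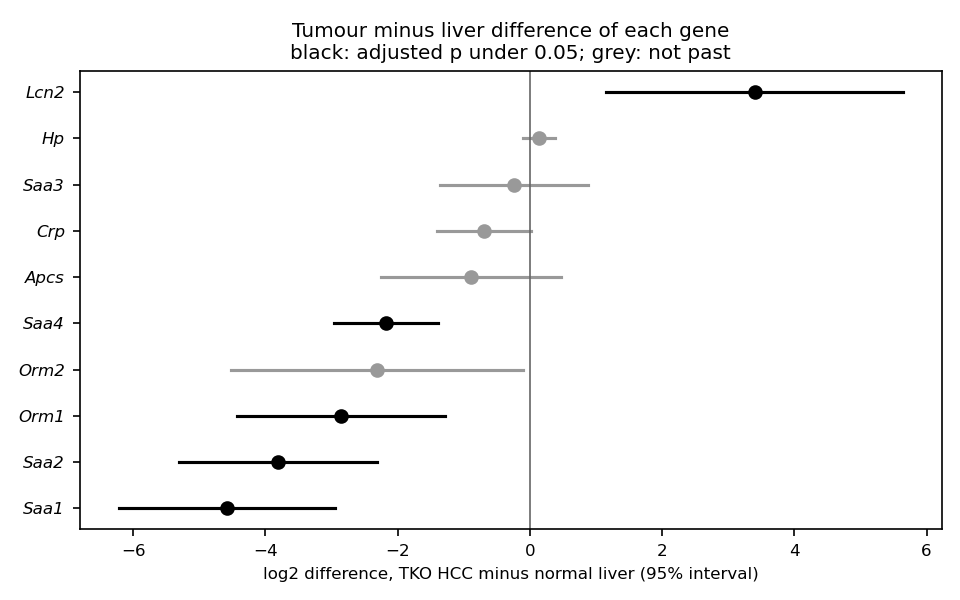
Log2 difference, TKO tumours minus normal livers, of each member (point) with its 95% interval (line); black members passed an adjusted p of 0.05 and grey ones did not. Lcn2 lies at 3.40, while Saa1, Saa2, Orm1 and Saa4 lie between -4.58 and -2.17.

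The members varied more between arrays of a group than most genes. Their median SD was 0.904 among tumours, against 0.190 for all genes, and 0.746 among livers, against 0.162 for all genes. The SD was above the 90th percentile of all genes for 9 members among tumours and for 6 among livers. Each member's mean level was at percentile 71.1 of all genes or above, and these comparisons were not matched on level. Liver 2 was the highest liver for 9 of 10 members (Saa3 was the exception) and liver 4 the lowest for 9 of 10 (Saa4 was the exception), whereas over all genes these arrays held those places for 21.7% and 27.4%. Tumour 1 was the lowest tumour for 7 members, against 16.2% of all genes. Tumour 2 was the highest tumour for 5 members and tumour 4 for 3, against 22.9% and 22.5% of all genes. Tumour 1, tumour 2 and liver 4 are the arrays of low Xist and high Eif2s3y, and the part of this in their places was not tested.

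**Figure D4:**
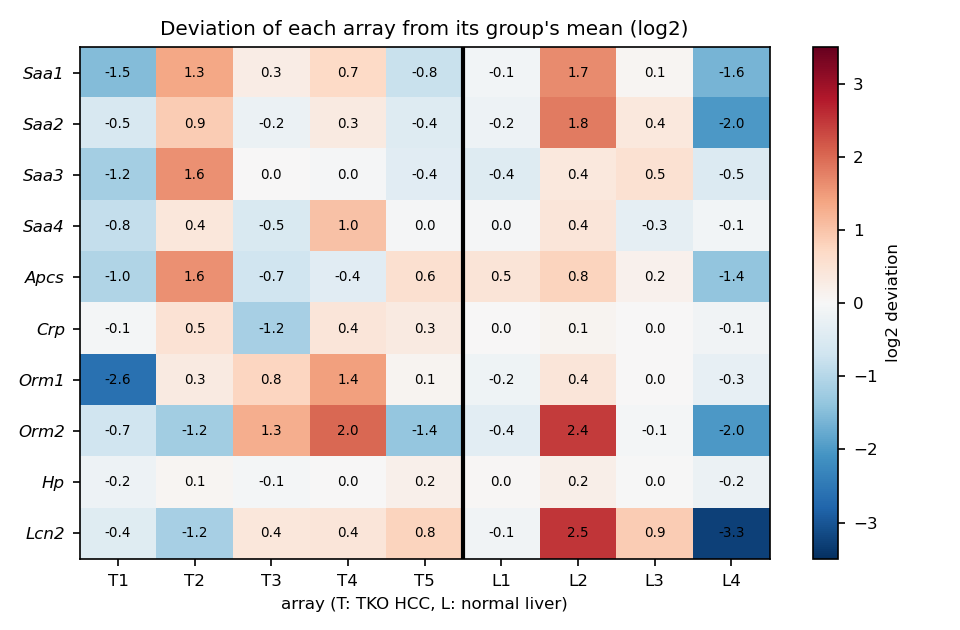
Deviation of each array from its own group's mean in log2 units, with members down the page, tumours (T) on the left and livers (L) on the right; red is above the group's mean and blue below it. Liver 2 is above the mean for all 10 members, liver 4 is below it for all 10, and tumour 1 is below it for all 10.

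Markers of other cells moved with some of these arrays. Counts of list genes here and below are to be read beside all genes, of which 17.4% were lower and 16.1% higher, and no list was tested as a set. All 12 measured neutrophil markers were highest in liver 2 among the livers, and 7 were lowest in liver 4. The neutrophil calprotectin gene S100a9 had 6.57, 8.71, 8.67, 8.07 and 10.22 in tumours, against 8.96, 11.45, 9.32 and 7.58 in livers, and Lcn2 is itself a protein of neutrophil granules. Between the groups, the mean level of the 12 neutrophil markers ranged over 6.14 to 7.41 in tumours and 6.44 to 8.10 in livers, 1 of them was lower (Cxcr2, a difference of -0.25) and 0 were higher in the limma test. Of 13 macrophage and Kupffer cell markers 6 were lower in tumours and 0 higher, with a median difference of -1.53 and mean levels of 7.41 to 9.36 in tumours, against 9.32 to 10.34 in livers; 12 of them were lowest in liver 4 among the livers and 10 in tumour 1 among the tumours. The Kupffer cell lectin gene Clec4f differed by -3.51 and the macrophage receptor gene Timd4 by -2.90, with Timd4 at 4.43 to 5.02 in tumours, near the range of the TrpnX control, a bacterial sequence (3.69 to 4.36). Csf1r, the receptor gene for macrophage colony-stimulating factor and the most abundant of these markers, differed by -1.53 (limma adjusted p = 0.0333), with 9.49 to 11.63 in tumours and 11.65 to 12.59 in livers, and lost its call without any 1 of tumours 1 and 2 and livers 1 to 3. In bulk tissue fewer cells of a type and less RNA per cell cannot be told apart, and the part of these cells in the members' values was not tested.

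Hepatocyte markers were present in all samples. Of 10 measured, 2 were lower in tumours (Apob and Tdo2, with differences of -0.61 and -0.94), 0 were higher, and their mean level spanned 12.86 to 13.66 in tumours, against 13.74 to 13.78 in livers. Alb, the albumin gene, ranged over 15.42 to 15.55 in tumours, against 15.21 to 15.50 in livers, a difference of 0.085 that did not pass. Its 15.55 was the highest value on any array, where differences can be compressed. Of 6 endothelial markers 3 were lower (Clec4g, Stab2 and Kdr, with differences of -4.08, -1.60 and -1.15), and of 7 stellate cell and fibroblast markers 2 were higher (Col1a1 by 2.14 and Col3a1 by 1.84) and 1 was lower (Lrat, -1.90). Of 7 bile duct markers Sox9 was higher by 1.32 and Krt7 lower (-0.29), of 5 adipocyte markers Fabp4 was higher by 2.22, and of 6 lymphocyte markers Ms4a1 was lower (-1.12), while Cd4, the most abundant of them, differed by 0.27 and did not pass. Among the markers named here, the calls of Cxcr2, Csf1r, Tdo2, Col3a1, Lrat, Sox9, Krt7 and Ms4a1 were lost when some single array was left out. Adipocytes and bile duct cells can also make acute phase proteins, and their mean marker levels were 6.06 to 6.39 and 5.74 to 6.85 in tumours, against 5.71 to 5.91 and 5.91 to 6.35 in livers. The median difference of these markers was -0.12 for adipocytes and 0.015 for bile duct cells, so the means do not stand for most markers of either list. For the Actb control the array reads both ends of the transcript, and the log2 ratio of 3′ over 5′ signal, which grows as RNA shortens, was 0.605 ± 0.079 in tumours (SD, n = 5) and 0.965 ± 0.044 in livers (SD, n = 4), without overlap (exact permutation test, adjusted p = 0.0159 over 2 controls), and for Gapdh it was -0.212 ± 0.027 and -0.278 ± 0.049 (exact permutation test, adjusted p = 0.0635). This measure runs with the groups, and its part in the members' differences was not tested.

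The signals and receptors upstream of the members were mixed. Of 10 measured cytokines that act on hepatocytes, 4 were lower and 1 was higher, where 17.4% and 16.1% of all genes were. Il1a and Il1b, the genes of interleukin 1, differed by -0.90 (limma adjusted p = 0.00112) and -1.06 (0.0054), and Hgf, the hepatocyte growth factor gene, by -1.23 (0.00177), while Clcf1, an IL-6 family cytokine gene, was higher by 0.45 (0.00869). Il6 itself, named after its values were seen, was at 3.63 to 3.82 in tumours and 3.79 to 4.01 in livers, at or below the highest value of the TrpnX control.

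Among 12 receptors of these cytokines 3 were lower and 2 higher. Il6st, which encodes gp130, the shared signalling chain of the IL-6 family, had 8.78, 9.31, 9.77, 9.60 and 9.45 in tumours, against 11.07, 11.30, 10.79 and 10.57 in livers, a difference of -1.55 (SE 0.22, limma adjusted p = 0.000788). All tumours were below all livers. Lifr, the receptor of leukaemia inhibitory factor and a partner of gp130, differed by -2.76 (SE 0.30, adjusted p = 0.000192), with 8.65 to 9.73 in tumours and 11.21 to 12.44 in livers (limma). Met, the receptor of HGF, differed by -0.65, and Il22ra1, a chain of the IL-22 receptor, was higher by 1.32.

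Of 21 JAK-STAT, C/EBP and NF-kB transducers 5 were higher and 2 lower. Rela, an NF-kB subunit gene, was higher by 0.84 (limma adjusted p = 0.00337), Bcl3, which encodes a nuclear IkB protein that modulates NF-kB, by 1.11 (0.00763) and Cebpb, a C/EBP factor gene, by 0.46 (0.0116), while Traf6, an adaptor of IL-1 signalling, fell by 0.47 (0.00214). Stat3, named after its values were seen, differed by 0.13 (limma adjusted p = 0.637). Of 16 feedback inhibitors 2 were higher, Tnfaip3, which restrains NF-kB, by 2.07 and Ptpn2, a phosphatase of JAK-STAT signalling, by 0.71, and 1 was lower, Socs2, with a difference of -2.47 that lost its call without tumour 5, liver 1 or liver 2. Socs3, a STAT3 target that blocks gp130 and was also named after its values were seen, was at 7.72 to 8.96 in tumours and 8.68 to 10.72 in livers, highest in liver 2, and its difference of -1.07 did not pass (limma adjusted p = 0.0854). Of 9 transcription factors of liver genes Foxa1 was higher by 0.73, a call lost without any 1 of tumour 1 and livers 1 to 3, and 0 were lower.

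Other acute phase proteins were counted next. The list of 30 other positive ones held genes taken to rise in inflammation, and not only genes of plasma proteins. Of these, 7 were lower (17.4% of all genes were), 2 higher and 21 did not pass. Their median difference was -0.064, against -1.53 for the members and -0.081 for all genes. Several of these genes, like Hp among the members, lay near the top of the scale. Differences can be compressed there, which may shrink this median. Nnmt, which encodes nicotinamide N-methyltransferase, stood at 5.63, 6.01, 5.73, 6.57 and 5.90 in tumours, against 12.78, 13.49, 12.80 and 11.50 in livers, a difference of -6.68 (SE 0.36, limma adjusted p = 1.98e-06). Mbl1, a mannose-binding lectin gene, differed by -2.49 and F8, the gene of coagulation factor VIII, by -2.40, while Cd14, the endotoxin co-receptor gene, was higher by 2.28 (9.65 to 11.69 in tumours, 8.05 to 9.04 in livers). Hamp, the gene of the iron hormone hepcidin and named after its values were seen, had 8.33, 14.43, 7.63, 8.90 and 6.82 in tumours, against 14.75, 14.86, 14.50 and 14.61 in livers; tumour 2 was close to the livers and the other tumours were far below them (difference -5.46, SE 1.34, limma adjusted p = 0.0131). The fibrinogen chains Fga, Fgb and Fgg, also named after their values were seen, differed by -0.12, -0.17 and -0.26 and did not pass. They read 14.44 to 15.15 over all arrays, near the top of the scale.

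Among these 30 genes liver 2 was the highest liver for 19 (63.3%) and liver 4 the lowest for 20 (66.7%), the same arrays as for the members. The 17 genes listed as negative acute phase proteins, taken to fall in inflammation and again not only of plasma proteins, held 7 lower and 1 higher. Igf1, the insulin-like growth factor gene, differed by -3.22, Itih1, an inter-alpha-trypsin inhibitor chain, by -1.50, and Cyp7a1, which encodes the enzyme that limits bile acid synthesis, by -5.39, while Ahsg, which encodes fetuin-A, was higher by 0.40. Liver 4 was the lowest liver for 13 of these 17 as well, so its low place was found in lists of either kind.

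**Figure D5:**
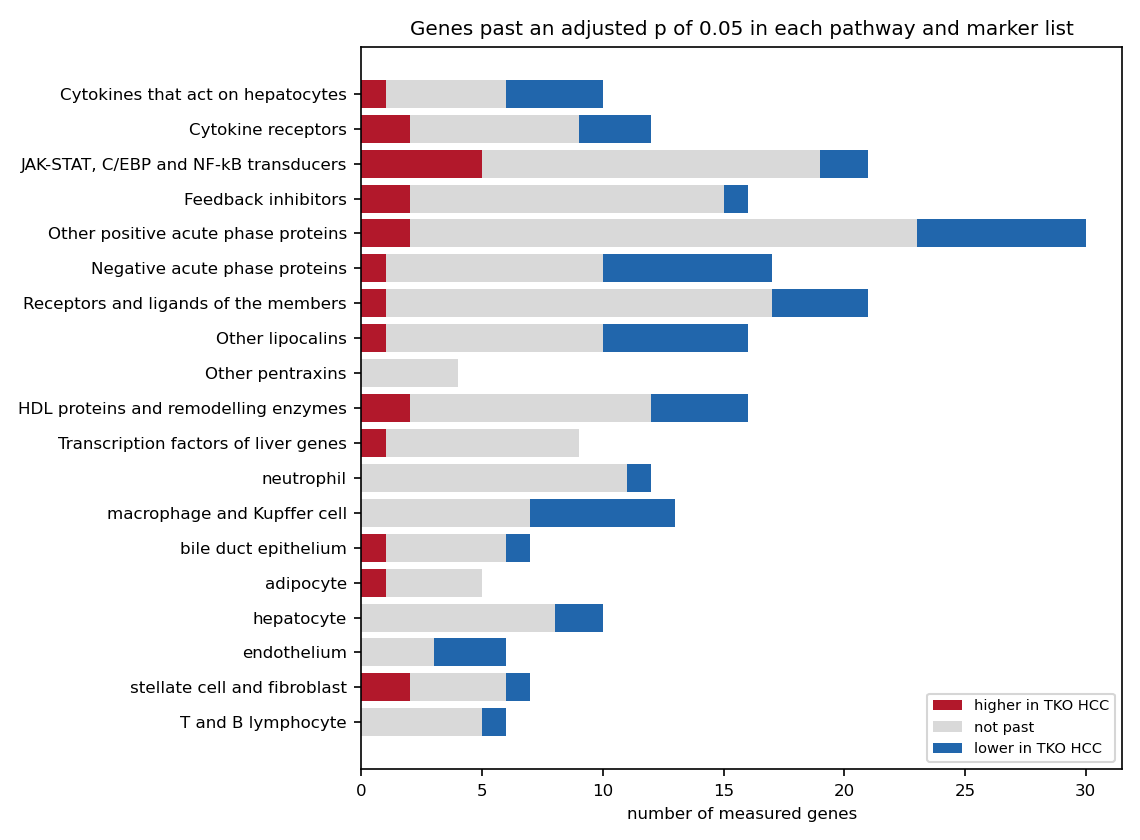
Number of measured genes (horizontal axis) in each pathway and marker list that were higher in TKO tumours (red, left), did not pass (grey) or were lower (blue, right) at an adjusted p of 0.05. Of the other positive acute phase proteins 21 of 30 did not pass, and of the macrophage and Kupffer cell markers 6 of 13 were lower.

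Partners of the members were measured as well. Of 21 receptors and ligands 4 were lower and 1 higher, where 17.4% and 16.1% of all genes were. Cd163, the macrophage receptor that takes up haptoglobin bound to haemoglobin, had 4.51, 4.72, 4.37, 4.68 and 5.66 in tumours, against 7.09, 9.96, 7.17 and 8.90 in livers, a difference of -3.49 (SE 0.58, limma adjusted p = 0.00206). All tumours were below all livers, and liver 2 was the highest. Tumours 1 to 4 were near the range of the TrpnX control (3.69 to 4.36), so the floor may limit the size of this difference. Fcgr2b, an Fc receptor gene that is also on liver sinusoidal endothelium, differed by -2.42 and Asgr1, a chain of the hepatocyte asialoglycoprotein receptor, by -0.68. Scarb1, the high density lipoprotein receptor gene whose product also binds serum amyloid A, was higher by 1.28, with 11.54 to 12.71 in tumours and 10.08 to 11.18 in livers.

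Of 16 proteins and enzymes of high density lipoprotein, the particle that carries serum amyloid A, 4 were lower and 2 higher. Pon1 and Pon3, the paraoxonase genes, differed by -3.66 and -1.01, Apoc3 by -0.45, and Apoc2 was higher by 0.95. Pon1 had 9.64, 14.00, 8.26, 12.01 and 10.84 in tumours, against 14.63, 14.63, 14.74 and 14.42 in livers, with tumour 2 nearest the livers. Of 16 other lipocalins, the family of Lcn2 and the orosomucoids, 6 were lower and 1 higher. Some of the lower ones were dim, with means of 4.97 and 5.24 in tumours, against 5.23 and 5.59 in livers. Orm3, the gene between Orm1 and Orm2, differed by -2.54 and Mup3, a major urinary protein gene whose probe set can bind similar transcripts, by -4.58. Ptgds, the lipocalin-type prostaglandin D synthase, was higher by 2.34, a call lost without liver 1, 3 or 4. C8g, a complement component of the lipocalin fold, differed by -1.14. Of 4 other pentraxins 0 passed (limma, adjusted), and they were dim, with a mean level of 5.06 to 5.18 in tumours and 5.10 to 5.57 in livers.

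For members whose values spanned more than 2 log2 units, the genes with the most similar profile over the 9 arrays were found by the root mean square difference after each profile was centred on its own mean. This describes these arrays, which differ by group, and nothing follows from it on shared control. For Saa1 the nearest were Saa2 (0.60) and Colec10 (0.88), and for Saa2 they were Saa1 and Acpp (0.67). Naip2 (0.36) and Pik3c2g (0.41) were nearest to Saa3, Fam214a (0.27) and Enpep (0.30) to Saa4, and Agtr1a (0.54) and Plppr1 (0.55) to Apcs. Colec10, a collectin gene, differed by -4.50, with 4.74 to 6.32 in tumours and 9.45 to 10.47 in livers. For Orm1 they were Rarres1 (0.50) and Rdh16f2 (0.64), for Orm2 its neighbour Orm3 (0.83) and Chic1 (0.97), and for Lcn2 they were Tcf24 (0.80) and Lgals1 (1.09). Lgals1, the galectin 1 gene, had 12.55 to 13.80 in tumours and 8.92 to 11.08 in livers, and its lowest liver was liver 4, as for Lcn2.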

How the data were processed

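RNA of 5 TKO tumours and 4 normal livers was measured on 1 Affymetrix array each, and samples were grouped by their titles. RNA was isolated with Trizol and amplified by the RiboAmp kit in 2 rounds, per the labels' protocols. The authors deposited 1 log2 value per probe set and array, and the submitters' processing notes name RMA, with no version or setting given. RMA as commonly run makes the distributions of all arrays alike and compresses differences near background and near the top of the scale. The table held 45101 probe sets with values from 3.13 to 15.55. Of these 34945 named 1 gene in the platform annotation, 932 named several, 9160 named none and 64 were controls, and only the first kind was used.

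Tumours were set against livers, gene by gene on 1 probe set each, by a two-sided test in limma 3.58.1 (R 4.3.3; lmFit, then eBayes) with no covariate. Benjamini-Hochberg adjustment ran over 18193 genes, with a threshold of 0.05. No filter on dim genes was used. Adjusted p-values of genes come from this fit unless a left-out array, another setting or a second probe set (a fit over 34945 probe sets) is named beside them, and those of family pairs and RNA controls from exact permutation tests over the arrays. The genes named in the text were all members; of each pathway or marker list up to 4 genes, 3 of the majority direction and 1 of the other, by lowest adjusted p; the most abundant gene of each marker list; and the 2 genes most like each member that spanned over 2 log2 units. Provisional symbols were passed over, and genes named after their values were seen are marked so. The members, lists and tests were chosen with earlier results of these data known. List genes that were not measured were not analysed here. The test was tried on simulated data with planted changes before use.

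Alternatives were the mean of all probe sets of a gene, centring on housekeeping genes or on the 75th percentile, leaving out dim genes, a trended robust fit, array weights, the replicate number as a block, each array left out, and, added after the data were seen, Xist as a covariate or without the 3 arrays of low Xist. The replicate numbers of tumours and livers did not pair the arrays: deviations of same-numbered arrays correlated at -0.129, -0.067, 0.180 and -0.121. The block is therefore a fit on numbers that do not match the arrays, and it leaves fewer degrees of freedom. Promoter windows came from RefSeq (GRCm38.p6) and were matched by symbol for 8 of 10 members. Tables were made in Python 3.11.15 (pandas 2.3.3, numpy 2.4.6) and figures in matplotlib 3.10.9.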

Additional observations from a re-analysis of the deposited data

Results flagged for a closer look

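A sample was singled out where its gap to the nearest other sample of its group, over the whole range of the group, passed Dixon's limit at the 95% level. This was so in 14 of 196 groups of values tested. For groups not chosen by their values chance gives about 1 in 20. Many of these genes were chosen by their test results, profiles or values, so that rate need not hold here. No member was among the 14. In tumours, Rarres1 was 5.303 in tumour 1 against 8.018 to 8.343 in the others, and Cyp7a1 was 11.2 in tumour 2 against 5.562 to 6.443. Hamp was 14.43 in tumour 2 against 6.818 to 8.901 in the other tumours. Prom1 was 4.92 in tumour 2 against 9.267 to 10.59 in the other tumours. Col1a1 and Col3a1 were 10.33 and 12.81 in tumour 3, where the others had 7.628 to 8.206 and 10.53 to 10.7. Chic1 and Orm3 were 6.413 and 7.285 in tumour 4, where the others had 4.71 to 5.05 and 5.442 to 5.879. Cd163 was 5.656 in tumour 5 against 4.366 to 4.719 in the other tumours. In livers, liver 4 stood apart for Alb (15.21 against 15.48 to 15.49), Hgf (7.434 against 8.219 to 8.336), Ptpn2 (9.566 against 10.02 to 10.07) and Rdh16f2 (10.61 against 12.54 to 12.7). Scarb1 was 10.08 in liver 3 against 11.02 to 11.18 in the other livers. The causes were not tested.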

How the results depend on the processing

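Saa1, Saa2, Saa4 and Orm1 stayed lower and past the threshold under every alternative run, and the second probe sets of Saa1 and Saa4 gave the same call. Lcn2 lost its call with the replicate number as a block (3.20, adjusted p = 0.114), which left 0 members higher, and it ranged over 2.31 to 4.23 with 1 array left out; members higher then numbered 0 to 1. The block changed no other member's call. No liver has the number 5, so the block takes tumour 5 out of the difference, and Lcn2 gave the same 3.20 without tumour 5. Apcs passed without the 3 low-Xist arrays (-1.54) but not with low Xist as a covariate (-0.83). Crp passed with 75th percentile centring (-0.84) and, unadjusted, in the exact permutation test (-0.69), and Orm2 with array weights (-2.87). With 75th percentile centring Hp turned to -0.0092, Alb to -0.063 and Stat3 to -0.018, and Stat3 was -0.046 as the mean of its probe sets and -0.051 to 0.320 with 1 array left out. With housekeeping centring Fga was 0.077, Fgb 0.025, Il6 0.069 and Naip2 0.162, and Naip2 was 0.018 with the block and -0.291 to 0.180 with 1 array left out. Saa3 ranged over -0.638 to 0.060. Genes lower numbered 3165, against 796 with housekeeping centring, 6972 with 75th percentile centring and 1531 with the block. Pathway list genes lower numbered 36, against 21 with housekeeping and 70 with 75th percentile centring, and those higher 17, against 11 with the block. Marker list genes higher numbered 4, against 7 without the low-Xist arrays and 2 to 5 with 1 array left out; those lower numbered 15, against 9 with housekeeping centring and 9 to 15 with 1 array left out. The housekeeping list had 8 of 14 genes higher and 1 lower, with a median difference of 0.51. With 1 array left out, Saa1 minus Saa3 ranged over -4.73 to -3.92, Saa1 minus Saa4 -2.92 to -2.003, Saa2 minus Saa3 -4.08 to -3.09, Saa2 minus Saa4 -2.27 to -1.17, Saa3 minus Saa4 1.63 to 2.22, Orm1 minus Orm2 -1.22 to 0.035, Apcs minus Crp -0.626 to 0.042, the Actb ratio -0.387 to -0.340 and the Gapdh ratio 0.052 to 0.090. Of 63 other named genes past the threshold, 12 lost the call without some array and 16 with the block. The cause was not tested in any of these. The number of arrays, dim probe sets and the top of the scale limit the precision.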
